A study of Mus musculus with 79 samples.

Results

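The genes described here encode the nuclear part of the mitochondrial oxidative phosphorylation system. They were chosen by symbol alone: a symbol had to start with Nduf, Uqcr, Sdha, Sdhb, Sdhc, Sdhd, Cox4 to Cox8 or Atp5, and joined symbols and pseudogene names were left out. Of the 23983 symbols in each of the 3 expression tables, 94 met this rule, and they were the same 94 in each table. By role they are 7 core subunits, 30 accessory subunits and 7 assembly factors of complex I, 4 subunits and 2 assembly factors of complex II, 8 subunits of complex III, 11 of complex IV and 15 of complex V. A further 8 are paralogs that are used in particular tissues or conditions, and 2, Atp5s and Atp5sl, carry the Atp5 name without being counted as subunits here. Ndufa4 was kept with complex I by its name, although it is now regarded as a part of complex IV. Cox7a2l was likewise counted with the subunits of complex IV by its name alone.

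Complexes I and II take electrons from NADH and succinate and pass them on to ubiquinone. Complex III hands them to cytochrome c, and complex IV passes them to oxygen. Complexes I, III and IV pump protons across the inner mitochondrial membrane while they do so, and complex V, the ATP synthase, uses the proton gradient to make ATP. Subunits of complexes I, III, IV and V come from both the nuclear and the mitochondrial genome, and complex II is wholly nuclear. Early mouse embryos are known for a strong use of glycolysis, and the tail bud is a tissue in which glycolytic activity is graded. The subunits encoded in mitochondrial DNA were not analysed here.

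The cells were sorted from caudal ends of mouse embryos, where neuro-mesodermal progenitors carry both T, a T-box factor of the mesoderm, and Sox2, a factor of neural progenitors. All embryos came from cultured embryonic stem cells by tetraploid complementation, and cells of pooled embryo tissue were sorted by flow cytometry. One table holds T+, T+ Sox2+ and Sox2+ cells of WT embryos (C57BL/6N) at Theiler stage 12 (TS12), called the sort table here. Another, the knockout table, holds T+ cells of WT (C57BL/6N) and of T2J/2J embryos (C57BL/6J, called T KO) at TS12 and TS13, and 2 libraries of Tbx6+ cells at TS14 (C57BL/6J). The third holds 53 single T+ Sox2+ cells of WT embryos (C57BL/6N) at TS13. The Tbx6+ pair is titled WT and KO, but its source labels give the reverse genotypes, so it is named by its titles. Every bulk group has 1 library, so bulk differences between 2 libraries carry no replicate error. The strain label differs between WT and T KO, so strain and genotype cannot be told apart.

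All levels are in FPKM (fragments scaled to transcript length and to the mapped total). The order of genes by level differed between the bulk tables, as described below for T+ WT cells of TS12. Levels of different genes are therefore set beside each other only within a table, as a description. Estimated depth was 20.8 to 43.5 M fragments per bulk library. At that depth a gene of 1 kb at 5 FPKM has a counting error of 6.78% to 9.81%, which covers counting only. The T KO libraries held T mRNA at 4.61 (TS12) and 3.32 FPKM (TS13), against 69.8 and 76.4 FPKM in the WT T+ libraries beside them. The WT library of TS12 in that table stood apart from the others: 1018 of 1436 sensory receptor genes, which these cells are not known to use, were above 0 there, against 20 to 32 in the other 8 libraries. The part of this background in the member values was not tested. Markers of red blood cells summed to 13156 FPKM in the T+ library of the sort table and to 130 and 273 FPKM in the T+ Sox2+ and Sox2+ libraries. In the knockout table their sums in T+ cells were 803 (WT) and 428 FPKM (T KO) at TS12, and to 2568 and 2341 FPKM at TS13. All 5 of the globin and erythroid markers called by limma between the stages were higher at TS13.

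Promoters of 5 members on which later comparisons turn are shown first, as the 250 bases before the start site, taken from RefSeq (GRCm38.p6). Capitals mark 2 motifs known from promoters of respiratory chain genes: GCGCANGCG, the letters that nuclear respiratory factor 1 (NRF1) binds, and CCGGAAG, a site of the ETS family to which NRF2 (GABP) belongs. Both strands were read. Cox6a1 lies at chr5:115348959-115349208 (minus strand), Atp5k at chr5:108434400-108434649 (minus), Atp5e at chr2:174464102-174464351 (minus), Ndufaf4 at chr4:24897833-24898082 (plus) and Cox6b2 at chr7:4753095-4753344 (minus).
Cox6a1: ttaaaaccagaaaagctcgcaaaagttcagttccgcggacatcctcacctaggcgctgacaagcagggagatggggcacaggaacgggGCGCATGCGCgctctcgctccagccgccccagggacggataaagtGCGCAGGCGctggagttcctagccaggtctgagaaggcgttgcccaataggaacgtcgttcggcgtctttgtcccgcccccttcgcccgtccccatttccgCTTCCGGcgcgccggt
Atp5k: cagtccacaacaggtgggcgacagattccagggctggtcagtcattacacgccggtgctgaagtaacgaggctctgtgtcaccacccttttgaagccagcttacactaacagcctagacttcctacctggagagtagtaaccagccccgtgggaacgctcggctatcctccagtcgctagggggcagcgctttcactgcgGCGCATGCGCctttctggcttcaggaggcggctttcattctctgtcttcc
Atp5e: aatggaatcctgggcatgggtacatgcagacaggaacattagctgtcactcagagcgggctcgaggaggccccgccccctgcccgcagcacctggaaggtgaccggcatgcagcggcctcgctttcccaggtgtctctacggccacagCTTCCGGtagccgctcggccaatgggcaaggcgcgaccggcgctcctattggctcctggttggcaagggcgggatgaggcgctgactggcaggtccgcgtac
Ndufaf4: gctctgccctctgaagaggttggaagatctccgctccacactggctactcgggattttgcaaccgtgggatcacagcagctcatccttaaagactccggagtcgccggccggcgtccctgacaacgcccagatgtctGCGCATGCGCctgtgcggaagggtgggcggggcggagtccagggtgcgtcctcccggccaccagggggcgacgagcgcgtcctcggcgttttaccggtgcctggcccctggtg
Cox6b2: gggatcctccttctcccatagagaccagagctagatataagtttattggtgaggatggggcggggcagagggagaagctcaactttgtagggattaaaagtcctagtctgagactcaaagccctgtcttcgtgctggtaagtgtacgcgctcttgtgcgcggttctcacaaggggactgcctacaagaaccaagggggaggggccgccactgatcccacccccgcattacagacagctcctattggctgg
Cox6a1 held 2 stretches with the NRF1 letters and 1 with the ETS letters. Atp5k and Ndufaf4 held 1 NRF1 stretch each, where the letters overlap on both strands, Atp5e held 1 ETS match, and in Cox6b2 neither motif was found in this stretch.

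Windows of 300 bases, from 250 before to 50 after the start, were at hand for 75 of the 94 members (80 windows). The NRF1 letters were in 23 of the 80 member windows (28.8%) and in 6.25% of all 32851 windows. The ETS letters were in 19 (23.8%), against 8.86% of all windows. A YY1 site, AAGATGGC, was in 9 (11.2%), against 2.75%. A GC box, GGGGCGGGG, was in 13.8% of member windows and 11.4% of all windows, and TATAAA in 8 member windows (10%) and 13.6% of all. The windows of cytoplasmic ribosomal protein genes differed from those of the members in the first motif: 12% of 75 held the NRF1 letters, while 33.3% held the ETS letters. Member windows had a median GC content of 58%, against 52.7% for all windows. A match is a description of the letters, not a binding site.

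Levels differed between the complexes. In the sort table the median member of complex IV was at 153 FPKM and that of complex V at 143 FPKM. Complex III followed at 83.7, complex II at 65, the core of complex I at 59.5 and its accessory subunits at 54.3 FPKM. Assembly factors were far lower, with a median of 6.84 FPKM for complex I and 10.6 FPKM for complex II. The highest member was Atp5b, the catalytic beta subunit of the ATP synthase, at 464 FPKM in the T+ library, 465 in that of T+ Sox2+ and 441 in that of Sox2+ cells. The order of the roles was another in the knockout table: complex V had a median of 167 FPKM, complex IV 141, the accessory subunits of complex I 81, complex II 80.7, complex III 62.3 and the core of complex I 59.1 FPKM. The assembly factors were again lowest of these, at 11.9 (complex I) and 14.3 FPKM (complex II). The highest members there were also others: Uqcrb, a small subunit of complex III, had a mean of 617 FPKM over the 6 libraries, Cox6c of complex IV 482 FPKM and Atp5b 462 FPKM. The subunits of complex II lay close together in the sort table, from 64.4 FPKM for Sdhb to 70.9 FPKM for Sdhd. In the knockout table they were further apart, from 58.9 FPKM for Sdhc to 109 FPKM for Sdha. As a share of the summed FPKM of all genes the members took 1.87% to 1.95% in the sort table and 1.75% to 2.34% in the knockout table.

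**Figure D1:**
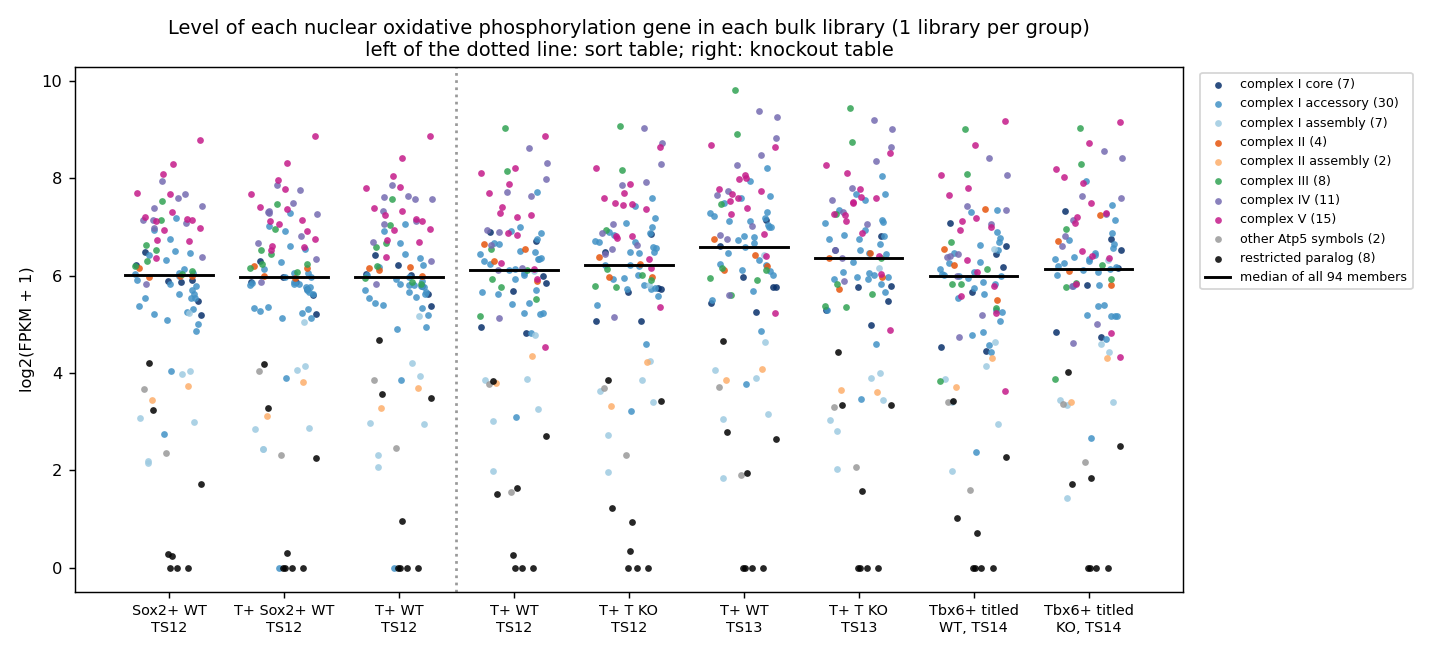
Each point is 1 of the 94 members in 1 bulk library, on the scale log2(FPKM + 1), coloured by role, and black bars are the median of all 94. Above the median lie 8 to 10 of the 11 subunits of complex IV and 11 to 15 of the 15 of complex V, depending on the library. All 8 restricted paralogs and, apart from Ndufaf2 in the Tbx6+ libraries, the assembly factors lie below it, and the highest bar is that of T+ WT cells at TS13 (95.8 FPKM).

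Restricted paralogs were mostly low beside their common partners. Cox6a2, Cox7b2, Cox8b and Cox8c, known from heart, skeletal muscle or testis, stayed under 0.3 FPKM in all 9 bulk libraries, while Cox6a1, Cox7b and Cox8a ran from 23.5 to 452 FPKM. Cox7a1, a muscle form, was between 0.191 and 2.86 FPKM. Cox4i2, the form of subunit 4 known from lung and low oxygen, was at 17.1 to 24.7 FPKM in the sort table and 9.76 to 24.4 FPKM in the knockout table. Its partner Cox4i1 was at 171 to 311 FPKM. Ndufa4l2, a target of the hypoxia response, was at 8.46 to 10.9 FPKM in the sort table. Cox6b2, known from testis, was at 2.30 to 10.2 FPKM in the 9 libraries. The 3 genes for the c subunit of the ATP synthase rotor, whose mature proteins are the same, differed in level: Atp5g3 was at 313 to 340 FPKM in the sort table, Atp5g2 at 249 to 270 and Atp5g1 at 120 to 141 FPKM. In the knockout table Atp5g2 was instead the highest of the 3 in all 6 libraries, at 79.5 to 192 FPKM. It was close to Atp5g3 in T+ WT cells of TS12 (117 and 114 FPKM).

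The sort table sets progenitors (T+ Sox2+) beside cells sorted as T+ or as Sox2+, and the members hardly differed. By mRNA the Sox2+ library was not free of T. T was at 192 FPKM in Sox2+, 341 in T+ Sox2+ and 141 FPKM in T+ cells, and Sox2 at 50.5, 16.4 and 2.82 FPKM. Differences are of log2(FPKM + 1), so that 1 is 2-fold, and a gene was compared when it reached 5 FPKM in 1 of the 2 libraries. The median difference was 0.0018 between T+ Sox2+ and Sox2+ cells (85 members), -0.03 between T+ Sox2+ and T+ cells (85) and -0.0023 between T+ and Sox2+ cells (86). The same medians over all genes were -0.02, -0.02 and 0.0052. With upper-quartile or median scaling the 3 member medians stayed between -0.03 and 0.03, where that of T+ Sox2+ against T+ turned above 0 with upper-quartile scaling and that of T+ against Sox2+ with median scaling. Under 0.5 in size were 83 of 85, 83 of 85 and 84 of 86 members, against 88.9%, 89.4% and 83.3% of all genes. In bulk samples, fewer cells of a type and less RNA per cell cannot be told apart. The 3 fractions come from 1 library each and each pair of comparisons shares a library.

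Cox6b2 and Ndufs5 were the only members 2-fold or more apart in the sort table, and each reached the minimum of 5 FPKM only in the library where it was highest, so the minimum had a part in choosing them. That is 1 of 85 members between T+ Sox2+ and Sox2+ cells (2.95% of all genes were that far apart), 1 of 85 between T+ Sox2+ and T+ cells (3.15%) and 2 of 86 between T+ and Sox2+ cells (6.83%). Cox6b2 stood at 10.2 FPKM (T+), 3.81 FPKM (T+ Sox2+) and 2.30 FPKM (Sox2+). Ndufs5, an accessory subunit of complex I, was listed at 0.001 FPKM (T+), 0.00076 FPKM (T+ Sox2+) and 5.68 FPKM (Sox2+). In the knockout table the same gene was at 60.7 to 105 FPKM in all 6 libraries, so the near-0 values may be failed estimates and no size of a fold is given. Ndufs5 is nevertheless in the counts above. With members under 0.1 FPKM left out, the count was 0 of 84 between T+ Sox2+ and Sox2+ cells. Between T+ and Sox2+ cells it was then 1 of 85. The red cell markers named above were also highest in the T+ library, and their part in the Cox6b2 value was not tested.

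Other genes of energy metabolism were set beside the members in the same libraries. Between T+ Sox2+ and T+ cells, 14 of 16 glycolysis genes were above 0 (median 0.27), where 47% of all genes were. Slc2a3, a glucose transporter, was 1.89 higher. Between T+ and Sox2+ cells 1 of the 16 was above 0 (median -0.30), where 50.8% of all genes were. Slc2a1 and Slc2a3 were at least 2-fold lower in T+ cells. Both comparisons use the T+ library, whose red cell markers summed to 13156 FPKM, and the part of these in the values was not tested. The citric acid cycle genes had medians of -0.16 and 0.08 in these comparisons, with none of 16 at 2-fold. The remaining pair, progenitors set against the Sox2+ library, does not use the T+ library. There 4 of the 16 glycolysis genes were above 0 (median -0.10), where 47.4% of all genes were. Slc2a1 was at 192 FPKM (T+ Sox2+) and 474 FPKM (Sox2+), and Slc2a3 at 205 and 421 FPKM, each at least 2-fold apart. The glycolysis genes were thus mostly not highest in the progenitors. None of the 77 mitochondrial ribosomal protein genes was 2-fold apart in the sort table.

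In the knockout table the comparison of T KO with WT asks what loss of T changes in T+ cells. At TS12 the median member was 0.14 higher in T KO cells, with 57 of 86 above 0, where 54.5% of all genes were above 0 and their median was 0.03. With upper-quartile scaling the median member was at 0.09 with 51 above 0, and with median scaling at 0.065 with 49 above 0. At TS13 it was 0.25 lower, a median of -0.25, with 13 of 87 above 0, against 44.6% of all genes and a median of -0.04. The medians thus had opposite signs at the 2 stages, with 1 library of each genotype behind each and no test of the difference. Complex I accessory subunits had medians of 0.23 at TS12 and -0.24 at TS13, complex IV 0.28 and -0.18, and complex V 0.13 and -0.36. Complex II, with -0.29 and -0.30, and the complex I assembly factors, with -0.26 and -0.26, had medians below 0 at both stages. At each stage 1 of 4 complex II members and 1 of 6 assembly factors was above 0. Both T KO libraries lay below both WT libraries for 2 of these 4 and 3 of these 6, where 21.9% of all genes did. Cytoplasmic ribosomal protein genes, set beside them, had medians of 0.26 and -0.20.

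A member 2-fold or more apart between T KO and WT was found at TS13 only: Ndufaf6, an assembly factor of complex I, with 0 of 86 members at TS12 (2.06% of all genes) and 1 of 87 at TS13 (2.69%). Its level was 13.5 FPKM in WT and 11.3 in T KO cells at TS12, and 15.7 and 7.25 FPKM at TS13. Both T KO libraries thus lay below both WT libraries, as for 17 of 87 members and for 21.9% of all genes. Both T KO libraries lay above both WT libraries for 3 members, Cox6b2, Ndufaf7 and Ndufc1, against 21% of all genes.

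The 4 T+ libraries of the knockout table were also fitted together with limma, with genotype and stage as terms, which asks whether an effect was alike at both stages. By limma with Benjamini-Hochberg adjustment, 0 of 87 members passed 0.05 for genotype, where 92 of 8437 genes did (1.09%). At an unadjusted p under 0.05 there were 5 members, 2 higher and 3 lower, where 12.2% of all genes passed. With genotype as the only term 4 members and 792 genes were under that p. Fits without 1 of the libraries leave 1 library in a group, so no such counts are compared at this point. Ndufaf4, an assembly factor of complex I, came closest: it was at 26.6 FPKM in WT and 18 in T KO cells at TS12, and at 23.8 and 15.0 FPKM at TS13. Its limma estimate was -0.59 (SE 0.15, Benjamini-Hochberg adjusted p = 0.11). Cox6b2 was at 5.57 and 9.70 FPKM at TS12 and at 5.28 and 9.19 FPKM at TS13, so both T KO libraries were above both WT libraries. Its estimate was 0.70 (SE 0.18, limma adjusted p = 0.13).

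Ndufc1, an accessory subunit of complex I, was at 36.5 (WT) and 63.7 FPKM (T KO) at TS12 and at 50.3 and 60.4 FPKM at TS13. Sdhb, the iron-sulfur subunit of complex II, was at 78.1 and 62.0 FPKM at TS12 and at 68.0 and 52.1 FPKM at TS13. Their limma estimates were 0.52 and -0.35, with Benjamini-Hochberg adjusted p of 0.23 and 0.37. With no minimum level, where 92 members and 19889 genes are tested, limma called 4 members, where 2.89% of all genes were called: Cox6b2 and Ndufc1 higher and Ndufaf4 and Ndufaf6 lower in T KO cells. Among other lists, limma called Slc2a3 higher of 16 glycolysis genes and none of 16 citric acid cycle genes, 77 mitochondrial and 80 cytoplasmic ribosomal protein genes. All 7 presomitic mesoderm markers were called lower in T KO cells, of which Msgn1, Meox1 and Pcdh19 reached the minimum only in WT cells. The 4 tested neural markers, all with an unadjusted limma p under 0.05, did not share a direction. Sox1, Irx3 and Ncam1 were higher in T KO cells at both stages, and Hes5 was lower. Sox1 reached the minimum only in T KO cells at TS13 and Hes5 only in WT cells at TS13. The part of these marker differences in the member values was not tested.

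**Figure D2:**
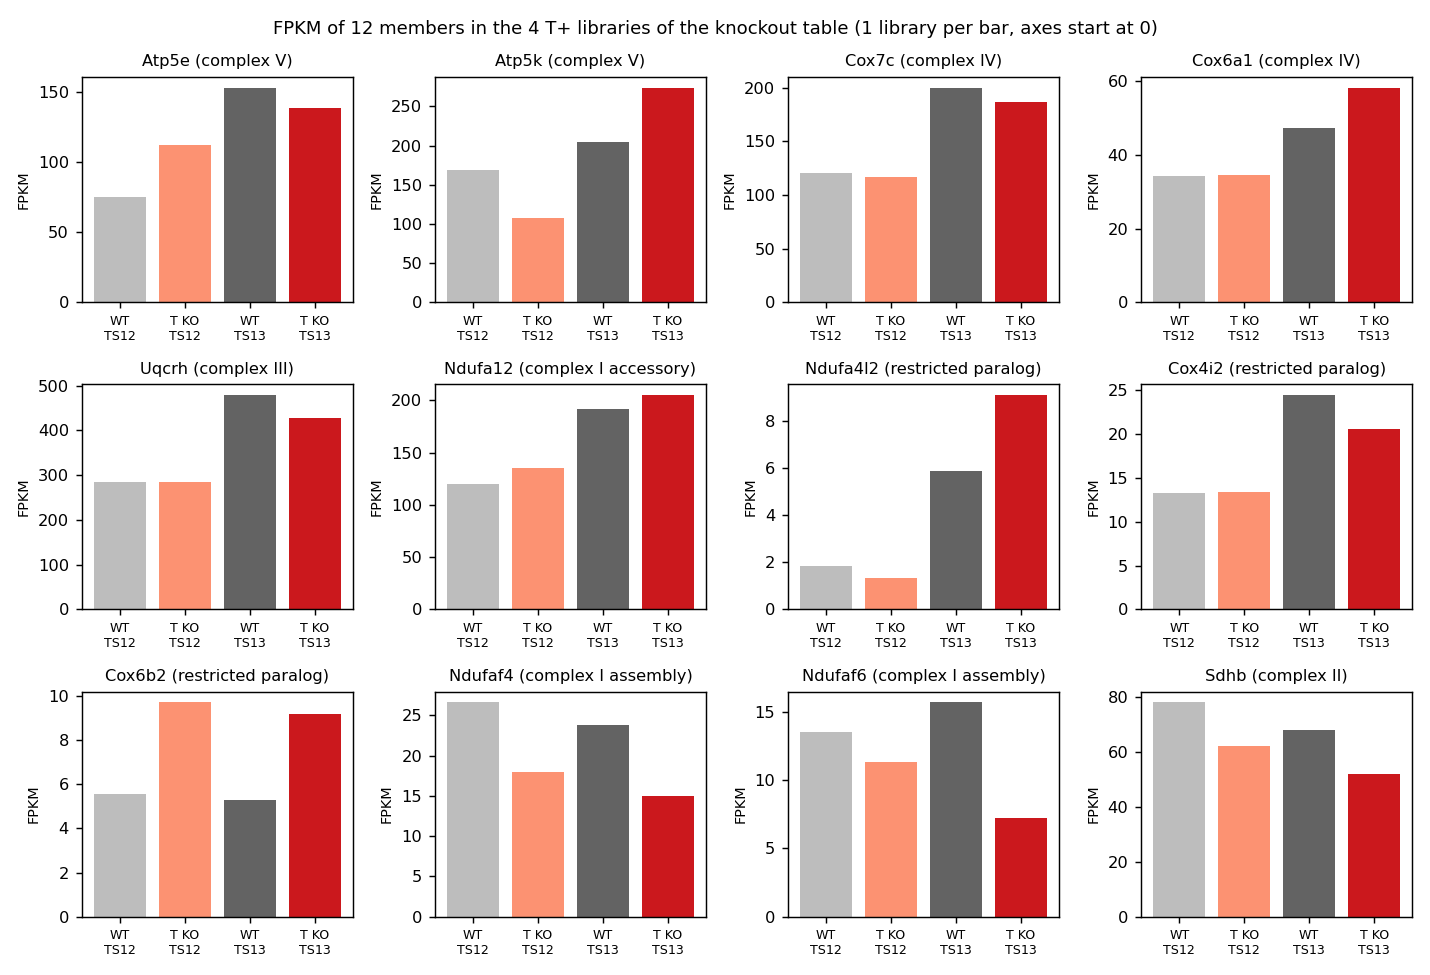
FPKM of 12 members in T+ cells, 1 library of the knockout table per bar. The first 8 members, from Atp5e to Cox4i2, are higher in both TS13 bars than in both TS12 bars, Cox6b2 is higher in both T KO bars, and Ndufaf4, Ndufaf6 and Sdhb are lower in both T KO bars.

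The largest median difference among the 8 bulk comparisons was that between stages in WT T+ cells. From TS12 to TS13 the median member was 0.57 higher there, and 71 of 87 were above 0, where 58% of all genes were and their median was 0.05. Only 40 of the 87 members were under 0.5 in size, against 89.2% of all genes. In T KO cells the median was 0.07, with 55 of 87 above 0, against 47.7% of all genes and a median of -0.02. The difference between the genotypes was not tested, and the WT value rests on the TS12 library with the sensory receptor background. The stage and genotype comparisons share these 4 libraries and are not independent of each other.

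In WT cells the shift was uneven between roles. Complex IV had a median of 0.75 with 11 of 11 members above 0, complex III 0.68 with 6 of 8, the accessory subunits of complex I 0.67 with 28 of 30, and complex V 0.50 with 13 of 15. The catalytic core of complex I had a median of 0.30 with 4 of 7 above 0. Complex II had a median of -0.01, the assembly factors of complex I 0.02 and those of complex II -0.11. In T KO cells the same medians were 0.30 for complex IV, 0.01 for complex III, 0.14 for the accessory subunits, 0.04 for complex V, 0.04 for the core and -0.01 for complex II. Cytoplasmic ribosomal protein genes had medians of 0.71 in WT and 0.19 in T KO cells. Mitochondrial ribosomal protein genes were at 0.18 and -0.04, and the citric acid cycle at -0.19 and -0.09. Ribosomal protein genes took 17.5% of the summed FPKM in WT cells at TS12 and 22.2% at TS13, and 19.3% and 21% in T KO cells. The part of this shift in the member values was not tested.

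**Figure D3:**
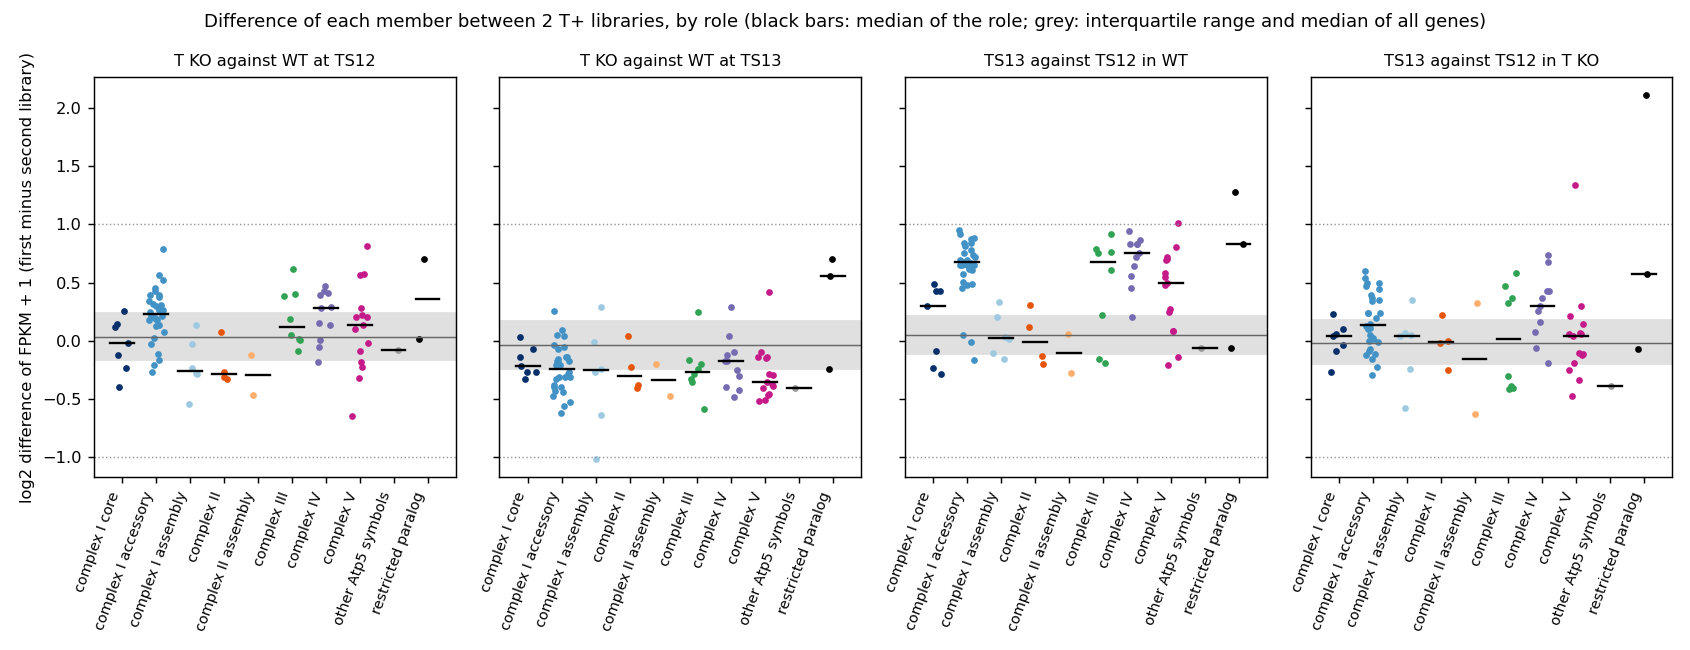
Difference of each member between 2 T+ libraries on the log2(FPKM + 1) scale, by role, with the median of the role as a black bar and the interquartile range and median of all genes in grey. In WT cells the bars of complexes I (accessory), III, IV and V lie between 0.50 and 0.75 above 0, and those of complex II and the assembly factors lie between -0.11 and 0.02.

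Members at least 2-fold apart between the stages numbered 2 of 87 in WT cells (1.48% of all genes) and 2 of 87 in T KO cells (1.61%), all higher at TS13. Ndufa4l2 was one of them in both genotypes, at 1.84 and 5.90 FPKM in WT and at 1.35 and 9.12 FPKM in T KO cells. It reached the minimum of 5 FPKM only in the TS13 libraries, so the minimum had a part in choosing it and its place in these counts is only a description. Atp5e, the epsilon subunit of the ATP synthase, was at 75.4 and 153 FPKM in WT and at 112 and 139 FPKM in T KO cells. Atp5k, a subunit of its membrane part, was at 169 and 205 FPKM in WT and at 108 and 274 FPKM in T KO cells. The TS13 libraries were above the TS12 libraries for both genes.

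By limma with Benjamini-Hochberg adjustment, 0 of 87 members passed 0.05 for stage, where 17 of 8437 genes did (0.201%), 5 of them the red cell markers above. At an unadjusted limma p under 0.05 there were 36 members, 35 higher and 1 lower at TS13, against 8.89% of all genes. The one that was lower is Sdhaf2, an assembly factor of complex II. With stage as the only term 31 members and 415 genes were under that p. As for genotype, counts from fits without 1 of the libraries are not compared at this point. Ndufa4l2 was tested only because of its TS13 levels, so its estimate is not given. Of the members with at least 5 FPKM in all 4 libraries, Cox4i2 had the smallest adjusted p. It was at 13.3 and 24.4 FPKM in WT and 13.4 and 20.5 FPKM in T KO cells (limma estimate 0.70, SE 0.15, adjusted p = 0.15). Cox7c, a small subunit of complex IV, was at 121 and 200 FPKM in WT and 116 and 186 FPKM in T KO cells (limma estimate 0.70, SE 0.16, adjusted p = 0.20). With no minimum level limma called 17 of 92 members, all higher at TS13, among 193 genes called higher and 126 called lower of 19889 (1.6%).

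Both TS13 libraries lay above both TS12 libraries for 48 of 87 members, where 18.2% of all genes did, and for 56 of 80 cytoplasmic ribosomal protein genes. They lay below for 3 members, Sdhaf2, Uqcrc1 and Uqcrc2, against 14% of all genes. Uqcrc1 and Uqcrc2 are the large core proteins of complex III, and Uqcrc1 was at 53.2 and 47.6 FPKM in WT and at 53.7 and 40.1 FPKM in T KO cells. For 44 of 87 members WT TS12 was the lowest and WT TS13 the highest of the 4 libraries, against 8.92% of all genes, as for 55 of 80 ribosomal protein genes. By role this held for 21 of 30 complex I accessory, 7 of 11 complex IV, 7 of 15 complex V, 4 of 8 complex III and 3 of 7 complex I core members, and for 1 of 4 of complex II, 1 of 3 restricted paralogs and none of the assembly factors. Atp5b followed no such order: it was at 464 and 400 FPKM in WT and at 396 and 364 FPKM in T KO cells.

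The Tbx6+ pair at TS14 was compared by title. The library titled KO was higher than that titled WT in 63 of 85 members, with a median of 0.18, where 45.1% of all genes were higher and their median was -0.04. None of the 85 was 2-fold apart, against 4.13% of all genes. Ndufb6, an accessory subunit of complex I, was the furthest apart, at 22.9 and 41.5 FPKM (0.83). Medians by role ran from -0.15 for the complex II assembly factors to 0.25 for the complex I core, leaving aside roles with 1 member. In these 2 libraries 15 of 16 glycolysis genes were also higher in the one titled KO, and Slc2a3 and Pdk1 at least 2-fold. Tbx6 mRNA was at 31.5 FPKM in the library titled WT and at 10.2 FPKM in that titled KO. Of 7 presomitic mesoderm markers, 5 (Tbx6, Msgn1, Dll1, Meox1 and Pcdh19) were at least 2-fold lower in the library titled KO. Dll3 was at 36.8 FPKM in the library titled WT and at 28.9 FPKM in that titled KO. Rspo3 went the other way, at 124 FPKM (titled WT) and 208 FPKM (titled KO). Meox1 and Pcdh19 reached the minimum only in the library titled WT. The source labels give the reverse of the titles, so no direction of a Tbx6 effect is drawn.

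Markers of other cell types differed in the same pair. Red cell markers summed to 1.12 FPKM in the library titled WT and to 259 FPKM in that titled KO, and all 3 of the 8 that reached the minimum were at least 2-fold higher in the latter. Endothelial markers summed to 29.1 and 7.27 FPKM, with 2 of 2 at the minimum at least 2-fold lower. Lateral plate mesoderm markers summed to 37.2 and 8.13 FPKM, with 3 of 4 at least 2-fold lower. Each marker in these counts reached the minimum only in the library where it was higher, so the minimum had a part in the counts. Sox2 was at 4.70 and 42.3 FPKM. The part of these differences in the member values was not tested.

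Set beside the 4 T+ libraries, the 2 Tbx6+ libraries were more often below than above them for the members. Both were below all 4 T+ libraries for 34 of 87 members (21.9% of all genes), among them 8 of 11 complex IV and 14 of 30 complex I accessory subunits. Both were above all 4 for 12 of 87 members, a smaller share than the 29.9% of all genes. Among them were the ATP synthase subunits Atp5a1 and Atp5b, the complex I core subunit Ndufs1, the complex II flavoprotein Sdha, and Uqcrc1 and Uqcrc2. Ndufs1, the largest core subunit of complex I, was at 96.3 and 91.8 FPKM in the Tbx6+ libraries and at 52.1 to 56.8 FPKM in the T+ libraries. Sdha was at 164 and 150 FPKM against 74.9 to 93 FPKM. Cox8a, a small subunit of complex IV, was at 35.4 and 31 FPKM against 70.6 to 133 FPKM. These libraries differ in sorted cell type and in stage, and in part also in strain label and genotype, which cannot be told apart.

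T+ WT cells of TS12 are in both bulk tables, made with different library kits. The cells differed too: red cell markers summed to 13156 FPKM in the sort table and 803 in the knockout table, presomitic markers to 546 and 210 FPKM, Tbx6 was at 152 and 21.4 FPKM, T at 141 and 69.8 FPKM, and the knockout library is the one with the sensory receptor background. Kit, cells and background cannot be told apart. Levels 2-fold or more apart between these 2 libraries were found for 17 of 87 members and 22.6% of all genes. Ndufa5 was at 39.2 FPKM in the sort table and 209 in the knockout table, and Uqcrb at 131 and 525 FPKM. Cox6a1 was at 196 and 34.3 FPKM, Atp5d, the delta subunit of the ATP synthase, at 124 and 22.2 FPKM, and Atp5g3 at 340 and 114 FPKM. The order of the 94 levels was related with a Spearman rho of 0.75 between these 2 libraries and 0.99 between the T+ and Sox2+ libraries of the sort table. These are descriptions over genes, which are not independent. Levels are therefore compared only within a table.

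In single T+ Sox2+ cells of TS13, 33 of the 94 members were above 1 FPKM in all 53 cells, where 3.85% of all genes were. In over 90% of the cells it was 64 members, against 9.15% of all genes, and 15 members were above 1 FPKM in under 50% of the cells (72.9% of all genes). A gene above 1 FPKM in 53 of 53 cells has a share of cells of at least 93.3% (exact 95% binomial interval, counting error only). The depth of each cell is unknown. The highest median was that of Cox7c with 1454 FPKM, and among the 64 members above 1 FPKM in over 90% of cells it was also the steadiest, from 493 to 2728 FPKM with an interquartile range of 0.60 on the log2 scale. The next steadiest were Atp5k with a median of 663 FPKM (interquartile range 0.69), Ndufs6 with 693 (0.76), Uqcrb with 575 (0.82) and Cox7a2 with 401 FPKM (0.86). Ndufs6 is an accessory subunit of complex I, and Uqcrb and Cox7a2 are small subunits of complexes III and IV.

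**Figure D4:**
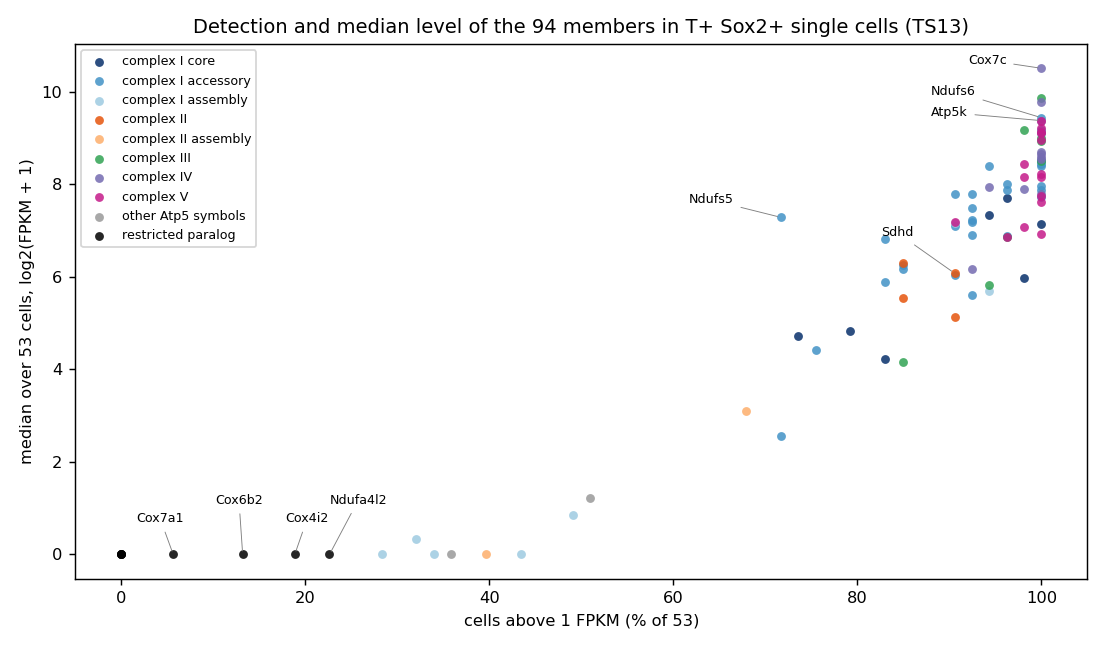
Share of the 53 cells in which each member was above 1 FPKM against its median level over the cells as log2(FPKM + 1), coloured by role. Most subunits lie at the upper right with 64 members in over 90% of cells, while the restricted paralogs have medians of 0. Of the assembly factors, Ndufaf2 (median 143 FPKM) and Ndufaf4 (51 FPKM) lie with the subunits, and the medians of the other 7 run from 0 to 7.63 FPKM.

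Among members above 1 FPKM in over 90% of cells, the widest spread was found for Sdhd, a membrane anchor of complex II, with a median of 66.5 FPKM, a highest cell of 1078 FPKM and an interquartile range of 4.17. Atp5f1 (2.77), Ndufa12 (2.67), Uqcrc1 (2.66) and Sdha (2.58) came next. The steadiest members named above had higher medians than these, and the part of level in the spread was not tested. Complex II was the lowest of the 5 complexes in these cells: the median level of its 4 genes was 56.1 FPKM, beside 61.8 for the core of complex I, 195 for its accessory subunits, 427 for complex III, 383 for complex IV and 287 FPKM for complex V. The summed FPKM of complex II ran from 0 in 1 cell to 1555, with a median of 352 FPKM. Ndufs5, near 0 in 2 of the sort libraries, was above 1 FPKM in 38 of 53 cells with a median of 155 and a highest value of 1300.0 FPKM.

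The restricted paralogs were rare in the cells. Cox6a2, Cox7b2, Cox8b and Cox8c were above 1 FPKM in 0 of 53 cells, for which the exact 95% interval allows up to 6.72% of cells. Cox7a1 was above 1 FPKM in 3 cells, Cox6b2 in 7, Cox4i2 in 10 and Ndufa4l2 in 12. In each of these 4 the median cell was at 0, and the highest cells reached 22.3, 94.4, 120 and 78.9 FPKM. Their partners Cox4i1, Cox6b1, Cox7a2, Cox7b, Cox8a and Ndufa4 were above 1 FPKM in all 53 cells, and Cox6a1 in 52. Of the assembly factors, Ndufaf4 was above 1 FPKM in 50 cells with a median of 51 FPKM, Ndufaf2 in 48 with a median of 143 FPKM, Ndufaf6 in 18 and Ndufaf5 in 17.

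The members took 2.94% to 5.96% of the summed FPKM of a cell, with a median of 4.39%. Over the 53 cells this share rose with the share of cytoplasmic ribosomal protein genes (Pearson r = 0.83, Spearman rho = 0.83) and fell with the number of genes above 1 FPKM (r = -0.59, rho = -0.62). All these shares are parts of the same sum, and the number of genes found depends on depth and RNA content, so the values are descriptions and their causes were not tested. With T and Sox2 levels the share had r of -0.0081 and 0.0093.

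**Figure D5:**
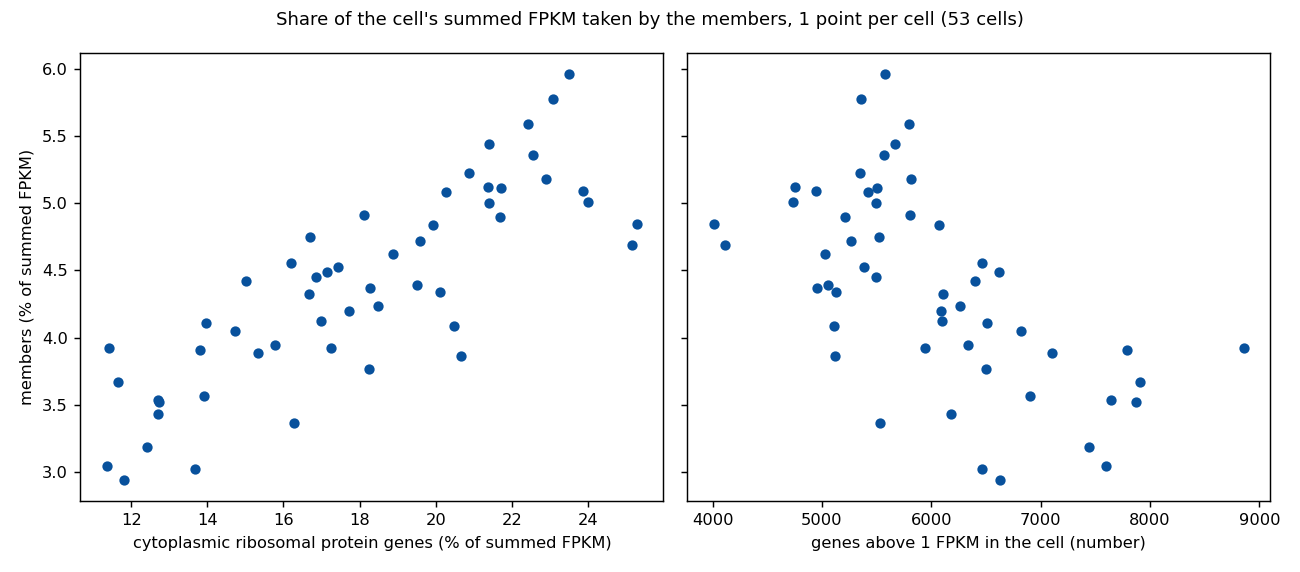
Share of the summed FPKM of a cell taken by the 94 members, 1 point per cell, against the share of cytoplasmic ribosomal protein genes (left) and the number of genes above 1 FPKM (right). The member share runs from 2.94% to 5.96%, higher in cells with a larger ribosomal protein share and lower in cells with more genes found.

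Correlations between members from cell to cell were low. Over 2016 pairs of the 64 members found in over 90% of cells, the median Pearson r of log2(FPKM + 1) was 0.06. It was 0.0054 over all genes found that often and 0.49 over 78 cytoplasmic ribosomal protein genes. The most alike pairs were Ndufa13 with Uqcr11 (r = 0.70), Atp5h with Atp5j2 (r = 0.60), both of the ATP synthase, and Cox4i1 with Cox6a1 (r = 0.60), both of complex IV. The genes outside the members most like their summed level were Rpl35 (r = 0.89), Rps29 (0.84) and Rps19 (0.84), which encode ribosomal proteins. All points of these correlations share the same 53 cell libraries and their depth. The sets also differed in level. The median summed FPKM of a cell was 101123 for all 83 cytoplasmic ribosomal protein genes and 23525 for all 94 members. The part of level in the correlations was not tested.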

How the data were processed

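The authors deposited 3 tables of FPKM, 1 value per gene symbol, and scaling between libraries is not given in the sources used here. Per the submitters' processing notes the tools included TopHat2 2.1.0, Bowtie 1.1.2 and Cufflinks 2.2.1 on build mm10. Per the labels' protocols, the sort table came from TotalScript libraries (14 cycles), the knockout table from ScriptSeq v2 libraries after ribosomal RNA depletion (15 cycles), and the cells from a Fluidigm C1 chip with 55 occupied sites, of which 53 are analysed here. Of 79 samples, 62 were used. The 12 chromatin accessibility and 5 chromatin immunoprecipitation samples were not analysed here.

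Each table was read separately. Small RNA genes, numbered gene models and joined symbols were left out of counts over all genes, leaving 21521 symbols. Differences are of log2(FPKM + 1) among genes with at least 5 FPKM in 1 library compared, and understate low genes. limma 3.58.1 (R 4.3.3), with its trend option, was run on the 4 T+ libraries of the knockout table (8437 genes, stage and genotype, 1 residual degree of freedom) and was tested on simulated data. Its p-values measure how alike an effect was across the other factor, not the spread between embryos. Of the 94 members, 87 passed the minimum there; Cox6a2, Cox7a1, Cox7b2, Cox8b, Cox8c, Atp5s and Ndufaf3 did not. Depth was estimated from steps between low FPKM values. Other work used Python 3.11.15, pandas 2.3.3 and matplotlib 3.10.9. Named genes are the highest and lowest of a role, those 2-fold apart, a fixed set of subunits and paralogs, and the most and least variable in cells. Others, such as Ndufaf4, Ndufaf7, Ndufb6, Ndufb11, Ndufc1 and those named by the order of libraries, were named after their values were seen. The members, the lists and the 5 motifs were chosen with earlier results of these data known, and the motifs from a wider set after their shares had been seen. Alternatives were the pseudocount, the minimum, 2 scalings, the limma settings, leaving out each library, and the detection threshold.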

Additional observations from a re-analysis of the deposited data

Results flagged for a closer look

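The T KO against WT difference pointed in opposite directions at the 2 stages for the members as a whole, with a median of 0.14 at TS12 and -0.25 at TS13. Among single members with at least 0.4 in size at both stages, 3 did the same. Atp5k was at -0.64 at TS12 and 0.42 at TS13. Ndufb11, an accessory subunit of complex I, was at 0.53 and -0.44, and Uqcrq, a small subunit of complex III, at 0.61 and -0.58. Each value compares 1 library with 1 library, and the difference between the stages was not tested.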

How the results depend on the processing

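The median member difference of each of the 8 bulk comparisons moved by less than 0.1 under every alternative run. That is a large part of the small ones: for T KO against WT at TS12 it went from 0.14 to 0.09 with upper-quartile and 0.065 with median scaling, and 57 of 86 members above 0 became 51 and 49. Counts of members 2-fold apart are small and moved. Between T+ Sox2+ and Sox2+ cells the count was 0 with a minimum of 20 FPKM and 0 with members under 0.1 FPKM left out. Between T+ Sox2+ and T+ cells it was 0 with a pseudocount of 5 and 0 with the minimum of 20 FPKM. Between T+ and Sox2+ cells it was 0 with the minimum of 20 FPKM and 1 with members under 0.1 FPKM left out. For T KO against WT at TS13 it was 0 with a pseudocount of 5, a minimum of 20 FPKM or upper-quartile scaling. For the stages in WT cells it was 0 with a pseudocount of 5, and 1 with a minimum of 20 FPKM, upper-quartile scaling or median scaling. For the stages in T KO cells it was 1 with a minimum of 20 FPKM, and for the Tbx6+ pair 1 with no minimum. limma called 4 members for genotype with no minimum (575 of 19889 genes) and 2 (Cox6b2 and Ndufaf4) with upper-quartile scaling, and for stage 17 (319 of 19889 genes) and 5 (Atp5k, Cox4i2, Cox7c, Cox8a and Ndufa4l2). With upper-quartile scaling it called 299 of 8434 genes for genotype and 140 for stage. Leaving out each of the 4 libraries in turn gave counts of 0 to 0 members called in both. These fits hold the tested term alone and leave 1 library in 1 group, which is assumed to vary like the others. They called 7 to 24 of all genes for genotype and 0 to 5 for stage, so a count of 0 members says little. Why the counts moved was not tested. No paired analysis was possible because each bulk group has 1 library and the labels give no replicate numbers shared between groups. Depth limits members near 5 FPKM, such as Ndufa4l2 and Cox6b2.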
